A study of Mus musculus with 8 samples.

Results

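The mouse mitochondrial genome encodes 37 genes, namely 13 mRNA, 2 rRNA and 22 tRNA genes. These members were taken as every gene of both count tables whose mouse symbol starts with mt-, and all 37 were found among the 45706 genes counted. Crypts, the epithelial glands in which intestinal stem cells divide, had been freshly isolated with EDTA from small intestine (SI) and colon (COL). The 8 libraries came from 4 wild type mice of the strain C57BL/6N, each giving 1 SI and 1 COL library, and the labels name no treatment. Mice 1 and 5 were female and gave SI1, COL1, SI4 and COL4, while mice 2 and 3 were male and gave SI2, COL2, SI3 and COL3. Crypt preparations are mixtures of cell types, so that fewer cells of a type and less RNA per cell cannot be told apart. COL2 was the shallowest library, with 15969428 counts in total, and COL4 the deepest, with 32908060. The age of the mice and the selection step of the library kit, such as poly(A) capture, are not given in the sources used here.

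Mitochondrial DNA is a small circle that is transcribed from both strands into long precursors, which nearly span the genome. Most tRNA genes lie between the larger genes, and their excision releases the mRNAs and rRNAs, an arrangement known as tRNA punctuation. All 13 proteins are subunits of the oxidative phosphorylation complexes I, III, IV and V, whose other subunits are encoded in the nucleus. In the annotation used (GENCODE vM21, GRCm38), 28 of the genes lie on the plus and 9 on the minus strand of chrM. The minus strand holds 8 tRNA genes and mt-Nd6, and the remaining members are on the plus strand.

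Crypt identity was checked with marker genes, given as CPM (counts per 1000000, scaled by edgeR's TMM method). Of 6 epithelial markers, Vil1 and Krt20 were higher in SI and Krt18 in COL, and their sum was 11200 to 22800 CPM in SI and 3713 to 9555 CPM in COL. All 5 SI crypt markers, among them the Paneth cell gene Lyz1 and the stem cell gene Olfm4, were higher in SI, where their sum was 266 to 3065 CPM against 1.90 to 15.6 CPM in COL. Of the 5 COL crypt markers, 4 were higher in COL, and their sum was 12880 to 43960 CPM against 1633 to 2322 CPM in SI. Markers of absorptive villus or surface cells summed to 30490 to 88320 CPM in SI against 203 to 1049 CPM in COL, with 4 of 6 called higher in SI, and Aqp8, a water channel that is also on the COL crypt list, called higher in COL. The immune cell markers summed to 4270 to 13080 CPM in SI against 27.3 to 214 CPM in COL, with 3 of 8 called higher in SI, where 28.4% of all genes tested were called in either direction. Nearly all of the SI sum came from Cd74, and the other 7 immune markers summed to 79.0 to 142 CPM in SI and 15.3 to 78.1 CPM in COL. Stroma markers stayed at 3.48 to 10.8 CPM in SI and 4.34 to 12.4 CPM in COL, and 0 of 5 were called. Smooth muscle markers summed to 2.24 to 12.4 CPM in SI and 7.06 to 8.77 CPM in COL, with 0 of 3 tested called. Endothelial markers summed to 0.101 to 3.20 CPM in SI and 1.26 to 5.84 CPM in COL, where the 1 gene tested, Pecam1, was called higher, and nerve and glia markers to 0 to 0.544 CPM and 0.535 to 4.97 CPM. Haemoglobin genes summed to 0.0458 to 0.811 CPM in SI and 3.66 to 38.5 CPM in COL, and 3 of 3 tested were called higher in COL. The part of these cell types in the mitochondrial values was not tested.

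Mitochondrially encoded transcripts took a share of the counts that differed widely among the libraries of both tissues. They made up 4.84%, 28.3%, 22.7% and 7.35% of all counts in SI1 to SI4, which is 15.8% ± 11.5 (SD, n = 4). In COL1 to COL4 the shares were 26.9%, 50.8%, 6.94% and 4.83%, or 22.4% ± 21.4 (SD, n = 4). Both tissues thus held libraries with a low and libraries with a high share, and mouse 2 was high in both tissues, mouse 5 low in both, and mice 1 and 3 high in 1 tissue. Malat1, a nuclear-retained non-coding RNA, was highest in the same libraries, at 1151 CPM in SI2, 1104 CPM in SI3, 1643 CPM in COL1 and 7053 CPM in COL2. In the remaining 4 libraries it lay between 389 CPM in SI4 and 493 CPM in COL3. The epithelial keratin Krt8 ran the opposite way, at 2225, 2552, 1727 and 1296 CPM in SI2, SI3, COL1 and COL2 and 5556, 4518, 5454 and 4505 CPM in SI1, SI4, COL3 and COL4. Within SI, so did the enterocyte gene Apoa1, at 23817 and 19084 CPM in SI2 and SI3 and 64614 and 40417 CPM in SI1 and SI4. Other markers of their lists did not all follow. Epcam had 503 and 535 CPM in COL1 and COL2 and 437 and 391 CPM in COL3 and COL4, although within SI it ran as Krt8 did. Slc26a3 was highest within SI in SI2, at 202 CPM. SI2 and SI3 came from the male mice and SI1 and SI4 from the female mice, so sex and mitochondrial share cannot be told apart within SI. The list of nuclear-retained, unpolyadenylated and stress RNAs to which Malat1 belongs summed to 800 to 1794 CPM in SI and 696 to 8162 CPM in COL, with Rmrp at 0 in all 8 libraries and Fos as the only 1 of 7 tested genes called. What sets the mitochondrial share of a library was not tested.

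**Figure D1:**
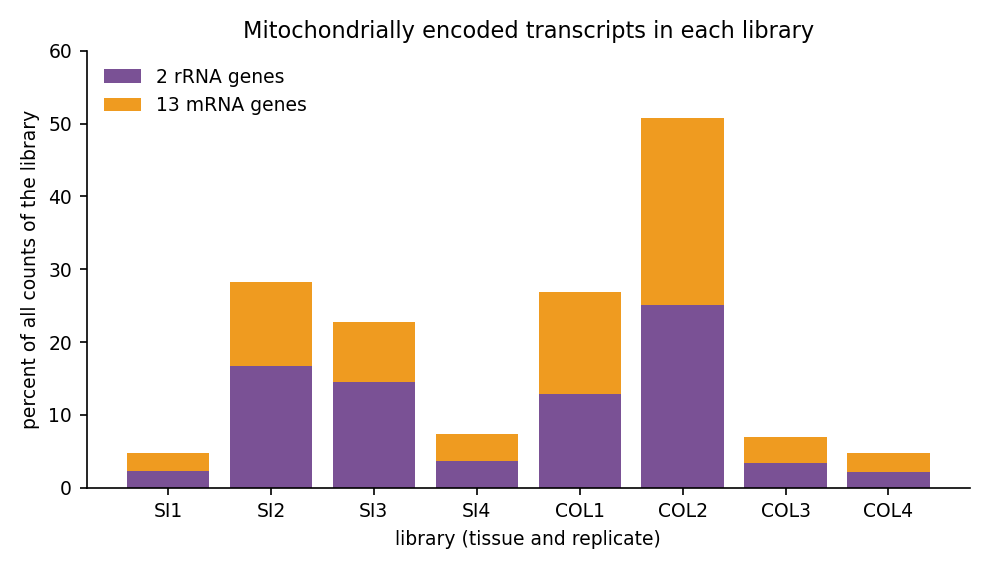
Percent of all counts of each library (vertical axis) taken by the mitochondrial rRNA genes and the mitochondrial mRNA genes, stacked, for the 4 SI and 4 COL libraries (horizontal axis). The whole bars range from 4.83% in COL4 to 50.8% in COL2, and both tissues hold low and high bars.

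At the level of single genes, no mitochondrial transcript differed between SI and COL crypts in the fit across all genes. The test was the quasi-likelihood test of edgeR, SI against COL, with TMM factors and Benjamini-Hochberg adjustment over all 14491 genes that passed the filter on low counts, at a threshold of 0.05. Of the members, 16 passed the filter, namely the 13 mRNA genes, both rRNA genes and the tRNA gene mt-Tp. None of these 16 were called (0 of 16, and 0 of 16 at an unadjusted p below 0.05), whereas 28.4% of all genes tested were. DESeq2 and limma-voom also called 0 of 16. The log2 fold changes of the members, with positive values for SI, ranged from -0.87 to 0.68 with standard errors of 0.61 to 1.20 and adjusted p-values of 0.519 to 0.999. Their median was -0.01, and that of all genes tested was -0.09. The CPM values of SI and COL overlapped for all 16 members, while 33.5% of all genes tested had no overlap. The direction of the members was not stable, since 7 of 16 were positive with TMM, 1 of 16 when libraries were scaled by size alone, which moved the median of all genes to -0.82, and 14 of 16 in a fit blocked on the donor. With COL2 left out 15 of 16 were positive, and with SI2 left out 1 of 16 was positive.

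Scaling each library to its own mitochondrial counts removed most of this spread. Across the 8 libraries, the standard deviation of log2 CPM of the 16 members had a median of 1.41 (range 1.05 to 1.80). The standard deviation of their log2 share of the mitochondrial counts had a median of 0.30 (range 0.17 to 0.65). In linear terms, the highest library exceeded the lowest 16.5-fold in CPM and 1.86-fold in share (medians of the 16 members). The steadiest shares belonged to mt-Cytb, with a 1.46-fold range, and mt-Rnr2, also with a 1.46-fold range, although mt-Rnr2 is itself 39.8% to 58.1% of the sum by which its share is divided, which limits how far that share can vary. The most variable share was that of mt-Co1, with a 3.62-fold range and a standard deviation of 0.65 on the log2 scale. In this respect the set varied largely as a block, and the composition described next is that within the block.

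The 2 rRNAs, which form the core of the mitochondrial ribosome, took between 44.2% and 63.7% of the mitochondrial counts. Their summed share was 48.4%, 59.4%, 63.7% and 50.3% in SI1 to SI4 and 48.1%, 49.2%, 49.0% and 44.2% in COL1 to COL4. That is 55.5% ± 7.31 in SI and 47.6% ± 2.36 in COL (SD, n = 4 each), and SI1 lies within the range of COL. The mRNAs took 44.5% ± 7.31 in SI and 52.3% ± 2.35 in COL. Expressed per kilobase of gene, the rRNAs came to 50.5% ± 7.33 in SI and 43.7% ± 2.33 in COL. All tRNA genes together took 0.0174% to 0.0579% of the mitochondrial counts.

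Most of the rRNA counts came from mt-Rnr2, the 16S rRNA of the large ribosomal subunit (chrM:1094-2675, plus strand). Its share was 43.8%, 51.9%, 58.1% and 45.7% in SI1 to SI4 and 42.8%, 43.2%, 45.0% and 39.8% in COL1 to COL4. SI was higher in all 4 mice, although the ranges overlap, as SI1 lies below COL3. The 12S rRNA of the small subunit, mt-Rnr1 (chrM:70-1024, plus strand), took 4.65%, 7.51%, 5.62% and 4.67% in SI and 5.34%, 6.01%, 4.03% and 4.35% in COL. These genes lie side by side with only mt-Tv between them, and the ratio of mt-Rnr2 to mt-Rnr1 counts was 9.42, 6.91, 10.3 and 9.78 in SI and 8.02, 7.19, 11.2 and 9.15 in COL. The tissues did not differ in this ratio beyond the spread between mice (difference of 0.04 on the log2 scale, two-sided exact permutation test over 70 assignments, p = 0.886, adjusted p = 0.886 over the 5 ratios tested).

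**Figure D2:**
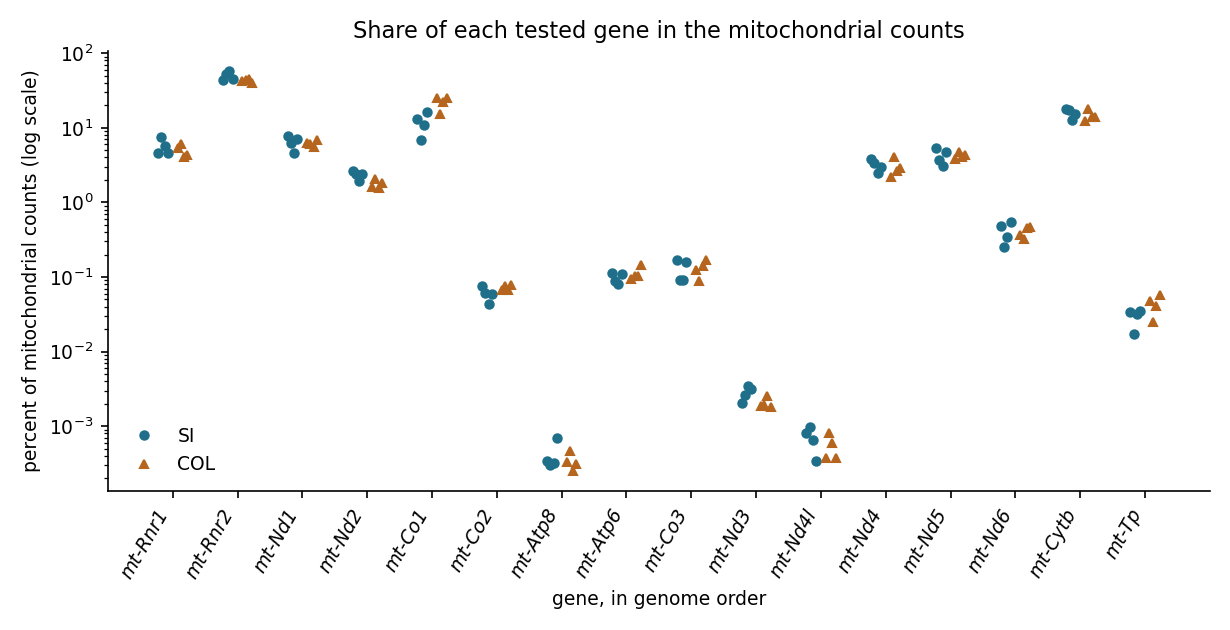
Percent of the mitochondrial counts of a library (vertical axis, log scale) for each of the 16 members that passed the filter, in genome order (horizontal axis), with 1 point per library (circles for SI, triangles for COL). Points of one gene lie close together compared with the distance between genes, and the SI and COL points of every gene overlap.

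Complex IV holds the gene with the widest tissue contrast, mt-Co1, which encodes the catalytic subunit of cytochrome c oxidase (chrM:5328-6872, plus strand). Its share of the mitochondrial counts was 13.1%, 6.91%, 10.8% and 16.2% in SI1 to SI4 and 24.9%, 15.5%, 22.3% and 25.0% in COL1 to COL4. SI was lower than COL in each of the 4 mice, and the ranges overlap only through SI4 and COL2. The means were 11.7% ± 3.90 for SI crypts and 21.9% ± 4.46 for COL crypts (SD, n = 4 each). Of the libraries rich in mitochondrial counts, SI2 and SI3 were below COL1 and COL2, and of those poor in them, SI1 and SI4 were below COL3 and COL4. Within SI, the rich libraries also had lower mt-Co1 shares than the poor ones. Within COL, the richest library, COL2, had the lowest mt-Co1 share, while COL1 had 24.9%. This grouping was made with the values known, and the part of the mitochondrial load in the mt-Co1 contrast was not tested. Fitted over the whole table with the mitochondrial sum as library size, however, mt-Co1 was not called by edgeR's quasi-likelihood test (log2 fold change -0.90, SE 1.24, adjusted p = 0.743). DESeq2 with the same scale gave the same change with a smaller error and called it (log2 fold change -0.90, SE 0.34, adjusted p = 0.0432). The direction was the same under every alternative computed, and this DESeq2 fit was the only one to call it. By itself, its log2 share differed with p = 0.0571 (two-sided exact permutation test over 70 assignments, not adjusted), where 0.0286 is the smallest p possible, and with p = 0.125 in an exact sign-flip test within mice, which is the smallest p that test can give.

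Composition as a whole gave no call in the main test. In the fit scaled to the mitochondrial sum, 0 of 16 members were called, and 0 of 16 had an unadjusted p below 0.05, against 9.74% of all genes tested. DESeq2 called 1 of 16, mt-Co1, and limma-voom 0 of 16. Log2 fold changes of the members ranged from -0.90 (mt-Co1) to 0.48 (mt-Nd3) with a median of 0.08, and adjusted p-values from 0.743 to 1.00. On this scale the median of all genes tested was -0.89, against -0.82 with scaling by library size alone. With single libraries left out, the median on the mitochondrial scale moved between -1.34 (SI1 left out) and -0.24 (COL4 left out). The standard errors of the members, 1.05 to 1.29, exceed the spread of their shares, and those of DESeq2 on this scale were 0.14 (mt-Rnr2) to 0.76 (mt-Nd6). The edgeR errors left the main test little room to call changes as small as those seen. Its 0 of 16 thus does not show an equal composition. The 9.74% covers nearly only nuclear genes, whose values on this scale also move with the mitochondrial share of the library. No member had SI and COL shares without overlap (0 of 16), against 10.5% of all genes tested. Exact permutation tests of the log2 shares of the 16 members gave 0 with an unadjusted p below 0.05 and a smallest p of 0.0571, for mt-Rnr2, mt-Nd2, mt-Co1 and mt-Nd3.

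**Figure D3:**
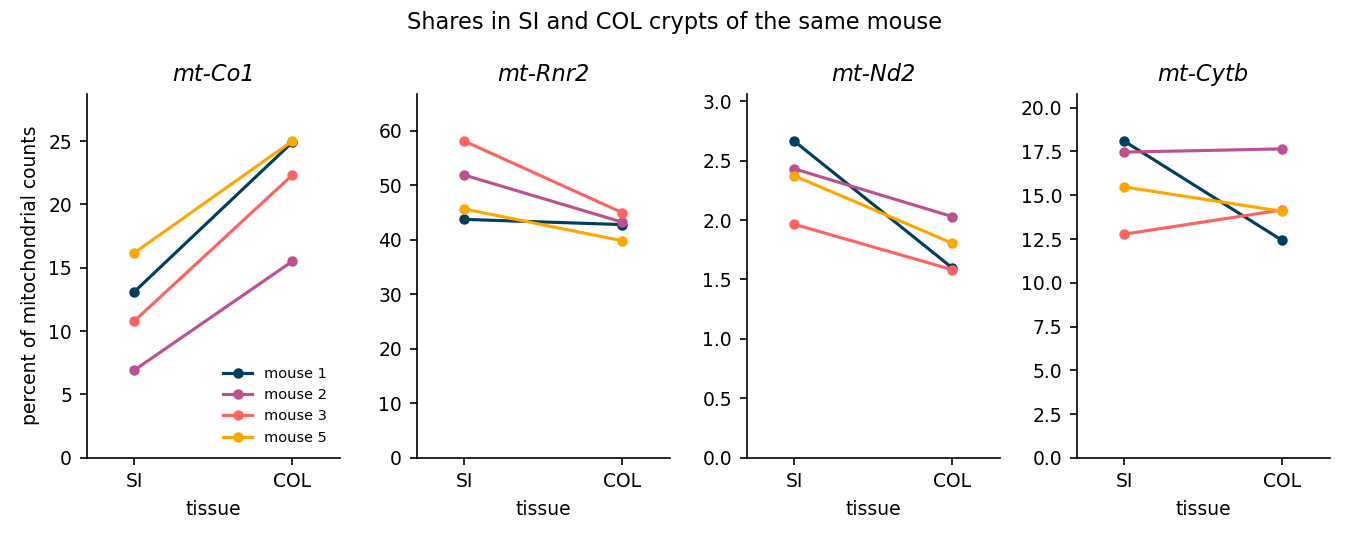
Percent of mitochondrial counts (vertical axes, each starting at 0) of mt-Co1, mt-Rnr2, mt-Nd2 and mt-Cytb in SI and COL crypts (horizontal axes), with a line joining the libraries of each of the 4 mice. All 4 lines rise from SI to COL for mt-Co1 and fall for mt-Rnr2 and mt-Nd2, while those of mt-Cytb go both ways.

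The other subunits of complex IV had far lower counts. Of their stretches of 50 bases, 100% for mt-Co2 and 99.9% for mt-Co3 also occur in another annotated gene, against 51.1% for mt-Co1. How many reads this moved was not tested, so these counts cannot be read as levels of the mRNAs. The share of mt-Co2 (chrM:7013-7696, plus strand), which carries the copper centre that accepts electrons from cytochrome c, was 0.0761%, 0.0609%, 0.0438% and 0.0589% in SI1 to SI4 and 0.0674%, 0.0756%, 0.0666% and 0.0789% in COL1 to COL4. The share of mt-Co3 (chrM:8607-9390, plus strand), the third core subunit, was 0.168%, 0.0909%, 0.0917% and 0.157% in SI and 0.126%, 0.0880%, 0.141% and 0.171% in COL. For both genes the tissues overlap. As a part of the mRNA counts, complex IV took 25.9%, 17.4%, 30.2% and 33.0% in SI1 to SI4 and 48.4%, 30.9%, 44.2% and 45.3% in COL1 to COL4, nearly all of it from mt-Co1. These shares overlap through SI4 and COL2 and came to 26.6% ± 6.80 in SI and 42.2% ± 7.75 in COL (SD, n = 4 each).

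Complex I, the NADH dehydrogenase, has 7 subunits in the set, and together they took 38.8%, 39.3%, 34.3% and 35.6% of the mRNA counts in SI1 to SI4. In COL1 to COL4 they took 27.4%, 34.1%, 27.8% and 29.2%, so that all SI libraries lay above all COL libraries (37.0% ± 2.44 against 29.6% ± 3.08, SD, n = 4 each). Shares of a whole move against each other, so a lower share of mt-Co1 raises those of the other mRNAs. With mt-Co1 left out of the mRNA sum, mt-Nd2 alone of the complex I genes examined kept SI and COL apart. This subunit of the proton-pumping membrane arm (chrM:3914-4951, plus strand) had 6.92%, 7.22%, 7.72% and 7.09% of the remaining mRNA counts in SI1 to SI4 and 5.93%, 5.76%, 5.53% and 5.87% in COL1 to COL4. Of the 9 genes examined in this way, those with at least 1000 counts in every library, mt-Nd2 and mt-Co2 did not overlap between the tissues and 7 did, while 10.4% of all genes tested did not overlap on this scale. In the case of mt-Co2 the order was the opposite, at 0.182% ± 0.0113 in SI and 0.239% ± 0.0188 in COL (SD, n = 4 each). Of its stretches of 50 bases, however, 100% also occur in another annotated gene, against 8.19% for mt-Nd2. A nuclear copy of mt-Co2 had 1.08 to 1.39 times its counts. Both were chosen after their values were seen.

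Among the other complex I genes, mt-Nd1 (chrM:2751-3707, plus strand), the first mRNA gene behind the rRNAs, took 7.66%, 6.17%, 4.62% and 7.04% of the mitochondrial counts in SI1 to SI4 and 6.27%, 6.12%, 5.45% and 6.79% in COL1 to COL4. It is parted from mt-Rnr2 by mt-Tl1 alone, a tRNA gene with a binding site for a transcription termination factor. The ratio of mt-Nd1 to mt-Rnr2 counts was 0.175, 0.119, 0.0795 and 0.154 in SI and 0.147, 0.141, 0.121 and 0.171 in COL. SI held both the lowest and the highest value (difference of -0.19 on the log2 scale, two-sided exact permutation test, p = 0.657, adjusted p = 0.821). The share of mt-Nd4 (chrM:10167-11544, plus strand), a membrane-arm subunit, ranged from 2.46% to 3.87% in SI and from 2.20% to 4.08% in COL. That of mt-Nd5 (chrM:11742-13565, plus strand), the largest subunit of this arm in the set, ranged from 3.04% to 5.35% in SI and from 3.77% to 4.74% in COL.

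Complex III is represented by mt-Cytb alone, the cytochrome b subunit (chrM:14145-15288, plus strand). Its share was 18.1%, 17.5%, 12.8% and 15.5% in SI1 to SI4 and 12.4%, 17.6%, 14.2% and 14.1% in COL1 to COL4. Both tissues span nearly the same range, and SI was lower in 2 of the 4 mice. Next to it on the opposite strand lies mt-Nd6 (chrM:13552-14070, minus strand), the only mRNA gene transcribed from the other template, with shares of 0.479%, 0.251%, 0.349% and 0.541% in SI and 0.366%, 0.325%, 0.459% and 0.470% in COL. The ratio of mt-Nd6 to mt-Cytb counts was 0.0265, 0.0144, 0.0273 and 0.0349 in SI and 0.0294, 0.0184, 0.0324 and 0.0334 in COL. Mouse 2 had the lowest ratio in both tissues, and the tissues did not differ beyond the spread between mice (difference of -0.17 on the log2 scale, two-sided exact permutation test, p = 0.571, adjusted p = 0.821). If the counting ignored the strand, reads of mt-Nd6 cannot be told apart from transcripts of the plus strand at this place. Of 450 genes whose exons are covered by exons of the opposite strand, 409 had no count and 9 had over 100 counts over all libraries. By comparison, 33110 of all 45706 genes had a count in at least 1 library. The strand setting itself was not tested.

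Ratios between members need no scaling at all. Between the 12 members with at least 1000 counts in every library there are 66 pairs, and in 13 of these (19.7%) the ratios of SI and COL did not overlap. Among all pairs of tested genes this share was 36.3%, but those pairs also hold genes with far fewer counts. The 66 pairs share 12 genes and are not independent of each other. Of the 13 pairs, 6 involve mt-Co1 and 6 involve mt-Nd2, 1 of them being the pair of both, and 2 involve neither. The mt-Co1 to mt-Nd6 ratio was 27.3, 27.6, 30.9 and 29.9 in SI1 to SI4 and 68.1, 47.7, 48.7 and 53.2 in COL1 to COL4. These SI values lie close together, with a standard deviation of 0.09 on the log2 scale against 0.24 in COL. Similarly, the mt-Nd2 to mt-Cytb ratio was 0.147, 0.139, 0.154 and 0.153 in SI and 0.129, 0.115, 0.112 and 0.128 in COL, which is a small but non-overlapping difference of 0.30 on the log2 scale. The 2 pairs without mt-Co1 and mt-Nd2 were mt-Nd1 with mt-Co2 and mt-Co2 with mt-Cytb. All of these pairs were picked from the 66 by their values, and no test was run on them.

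Complex V, the ATP synthase, has 2 subunits in the set, mt-Atp8 (chrM:7766-7969) and mt-Atp6 (chrM:7927-8607), both on the plus strand and translated from 1 mRNA in overlapping reading frames. The share of mt-Atp6, which forms part of the proton channel, was 0.113%, 0.0897%, 0.0798% and 0.110% in SI1 to SI4 and 0.0955%, 0.103%, 0.104% and 0.143% in COL1 to COL4. The gene mt-Atp8 had only 5, 18, 18 and 14 counts in SI and 21, 38, 5 and 5 counts in COL. Although these genes share an mRNA, mt-Atp8 had 0.00220 to 0.00630 counts for each count of mt-Atp6. Tissues overlapped in this ratio (difference of 0.40 on the log2 scale, two-sided exact permutation test, p = 0.286, adjusted p = 0.821). The other overlapping pair, mt-Nd4l (chrM:9877-10173) and mt-Nd4, gave 12, 59, 37 and 7 counts of mt-Nd4l in SI and 24, 66, 12 and 6 in COL, or 1.16e-04 to 2.88e-04 counts for each count of mt-Nd4 (difference of 0.22, two-sided exact permutation test, p = 0.543, adjusted p = 0.821). Reads that lie across 2 genes on 1 strand are not assigned to either by STAR's gene counting, and the joins are shown because they fix which bases could be counted for the small genes.

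mt-Atp8 and mt-Atp6 join (chrM:7897-7999, plus strand, GRCm38): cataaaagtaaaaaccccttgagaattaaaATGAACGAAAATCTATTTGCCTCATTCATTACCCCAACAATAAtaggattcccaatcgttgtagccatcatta
mt-Nd4l and mt-Nd4 join (chrM:10137-10203, plus strand, GRCm38): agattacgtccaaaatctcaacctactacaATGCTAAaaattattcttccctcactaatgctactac
Capitals mark the bases that both genes of a join hold, 43 in the first and 7 in the second, from the start codon of the downstream frame to the end of the upstream one. They leave 161 bases that belong to mt-Atp8 alone, and 290 that belong to mt-Nd4l alone.

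Levels of different genes were compared per length, as counts per kilobase per 1000000 mitochondrial counts, averaged over the 8 libraries. By this measure mt-Rnr2 stood first at 292562, followed by mt-Cytb at 133436, mt-Co1 at 108983, mt-Nd1 at 65460 and mt-Rnr1 at 55201. The order of mt-Cytb and mt-Co1 depended on the tissue, with means of 139450 ± 20922 and 75990 ± 25257 in SI and of 127422 ± 19227 and 141977 ± 28859 in COL (SD, n = 4 each). Then came mt-Nd5 at 23070, mt-Nd4 at 22274 and mt-Nd2 at 19803, whose values overlap across libraries, mt-Nd6 at 7803 and the tRNA gene mt-Tp at 5422. A much lower group followed, with mt-Co3 at 1646, mt-Atp6 at 1539 and mt-Co2 at 965, and last mt-Nd3 at 70.2, mt-Nd4l at 20.9 and mt-Atp8 at 18.5. Genes of 1 strand thus differed widely in counts per length, and so did mt-Atp8 and mt-Atp6, which share 1 mRNA. Lengths were not corrected for stretches shared with other genes. Of the 50-base stretches, 51.1% of mt-Co1 and 62.2% of mt-Nd4 also occur in another annotated gene, against 0% of mt-Cytb. The order of these genes in either tissue thus holds for counts per full gene length and cannot be read as that of mRNA levels.

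**Figure D4:**
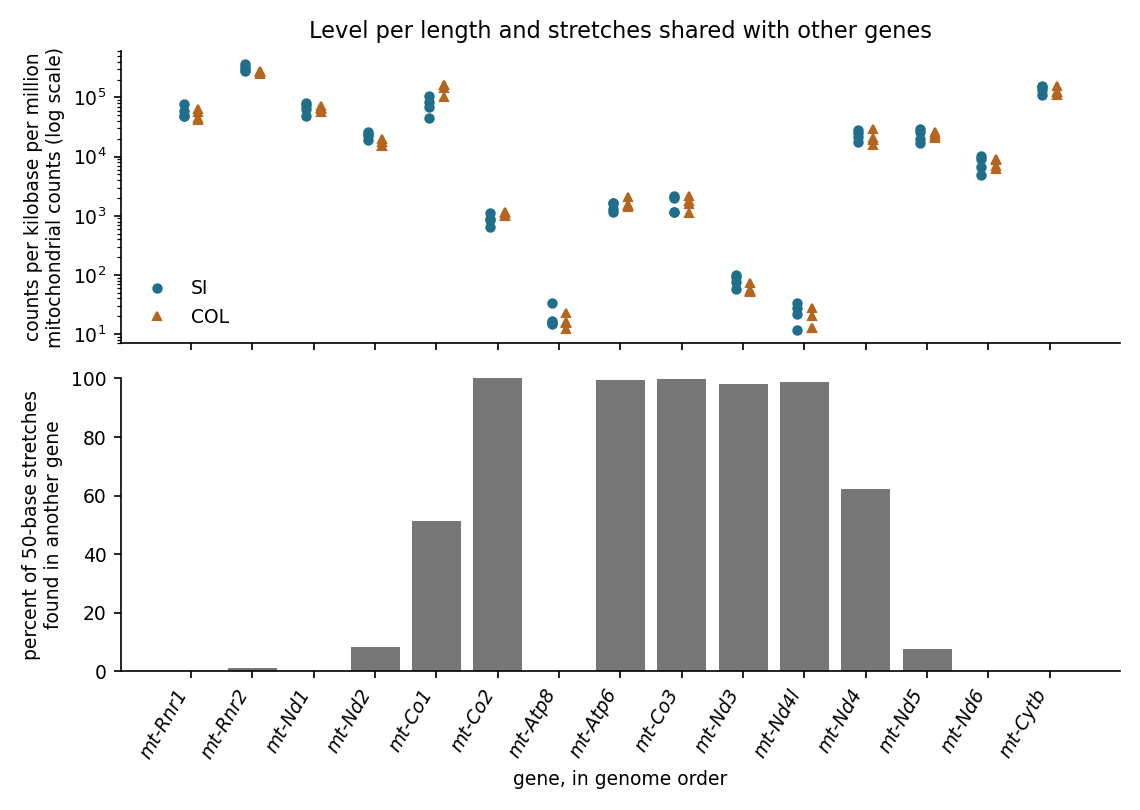
Upper panel, counts per kilobase per 1000000 mitochondrial counts (vertical axis, log scale) of the mRNA and rRNA genes in genome order, with 1 point per library (circles for SI, triangles for COL). Lower panel, percent of the 50-base stretches of each gene that occur in another annotated gene, which is 98.0% or more for 5 genes, mt-Co2, mt-Atp6, mt-Co3, mt-Nd3 and mt-Nd4l, which together with mt-Atp8, at 0%, have the lowest levels in the upper panel.

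Of the 6 genes with the lowest counts per length, 5 had a sequence that also occurs in annotated nuclear genes, and for mt-Atp8 none was found. Nuclear copies of mitochondrial DNA arise by insertion, and reads that match both places equally well have no single place of origin. Of all stretches of 50 bases, 100% of mt-Co2, 99.9% of mt-Co3, 99.5% of mt-Atp6, 98.8% of mt-Nd4l and 98.0% of mt-Nd3 were found in a transcript of another annotated gene. The values were 62.2% for mt-Nd4, 51.1% for mt-Co1, 8.19% for mt-Nd2, 7.61% for mt-Nd5 and 1.04% for mt-Rnr2, and 0% for mt-Rnr1, mt-Nd1, mt-Nd6, mt-Cytb and mt-Atp8. With stretches of 100 bases, mt-Co1 fell to 30.8% and mt-Nd5 to 0%. Only annotated transcripts were searched, so copies of mt-Atp8 or of tRNA genes in unannotated sequence would not be seen. How many reads were lost or moved by these matches was not tested.

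On chromosome 1, 7 annotated pseudogenes (chr1:24611535-24616197, minus strand) carry mt-Co1 to mt-Nd4 in the order of the mitochondrial genome. Each has at least 97.1% of its own 50-base stretches on chrM. Gm10925, the copy of mt-Atp6, ends at chr1:24614651, and Gm28661, that of mt-Co2, starts at chr1:24614885. The sequence between them, where mt-Atp8 would lie in this order, was not searched beyond annotated transcripts. Compared base by base, 5 of the pseudogenes (Gm28661, Gm10925, Gm28437, Gm10222 and Gm28439) were identical over their whole length to their mitochondrial genes mt-Co2, mt-Atp6, mt-Co3, mt-Nd4l and mt-Nd4. In Gm29216 there were 6 differences in 492 bases from mt-Co1, all at its start, and in Gm28438 there was 1 difference in 345 bases from mt-Nd3. That one is shown because mt-Nd3, the gene of a small complex I subunit (chrM:9459-9806, plus strand), had the fewest counts relative to its copy.

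mt-Nd3 (chrM:9459-9518, plus strand, GRCm38): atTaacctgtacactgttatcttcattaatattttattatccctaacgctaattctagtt
Gm28438 (chr1:24613060-24613119, minus strand, GRCm38): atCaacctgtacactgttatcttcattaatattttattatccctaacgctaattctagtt
Capitals mark the only base that differs over the 345 bases compared, T3C, counted from 1 at the 5′ end of the gene with the base of mt-Nd3 first. The assembly was made from C57BL/6J and the mice are labelled C57BL/6N, and the base that these mice carry at this position of chrM was not read here.

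Counts were split between the pairs in very different ways. The gene mt-Nd3 had 30, 159, 198 and 64 counts in SI1 to SI4 and 119, 155, 51 and 29 in COL1 to COL4, while Gm28438 had 13191, 39163, 53752 and 15892 counts in SI and 35048, 41186, 12502 and 9407 in COL. The copy thus had 245 to 440 times the counts of mt-Nd3 in every library. For mt-Co2, mt-Atp6 and mt-Co3, the copies had 1.08 to 1.39, 1.40 to 1.62 and 1.22 to 1.44 times the counts of the mitochondrial gene, and for mt-Nd4l 4.42 to 9.58 times. Conversely, Gm29216 had 0.00224 to 0.00396 and Gm28439 0.00327 to 0.00491 counts for each count of mt-Co1 and mt-Nd4, which both extend beyond their copies. The counts of each copy followed those of its mitochondrial gene across libraries, and the ratios of SI and COL overlapped for all 7 pairs.

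**Figure D5:**
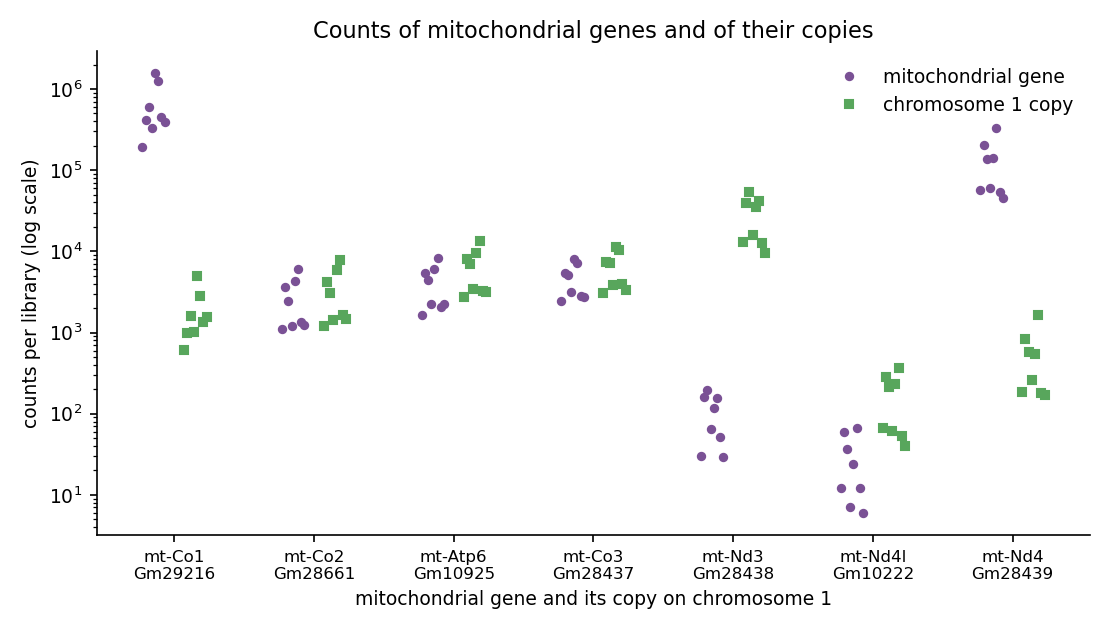
Counts per library (vertical axis, log scale) of 7 mitochondrial genes (circles) and of their annotated copies on chromosome 1 (squares), with 8 points each, in order SI1 to SI4 and COL1 to COL4 from left to right. The copy exceeds the mitochondrial gene most for mt-Nd3, by 245 to 440 times, and lies far below it for mt-Co1 and mt-Nd4.

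Adding the counts of the copies changed the level of mt-Nd3 most. Its level rose from 70.2 to 19833 counts per kilobase per 1000000 mitochondrial counts (mean of 8 libraries), next to the 19803 of mt-Nd2. Levels with copies added are scaled to the mitochondrial sum with the copies, and the other levels to the sum without them. With copies added, mt-Co2, mt-Atp6 and mt-Co3 came to 2111, 3865 and 3774, below the mRNA and rRNA genes with few shared stretches other than mt-Atp8. The copies of these genes are identical to them, and reads that match both places equally well may be missing from both counts. How many were missing was not tested, so these sums cannot be read as full levels. With its copy added, mt-Nd3 had 25463, 18705, 27170 and 22396 in SI1 to SI4 and 15727, 14494, 17850 and 16862 in COL1 to COL4. All SI libraries thus lay above all COL libraries, with SI2 and COL3 close together. Scaled to the mitochondrial sum without the copies, 10.5% of all genes tested had no overlap. The sum for mt-Nd3 was formed after the data had been seen. In edgeR's fit with the copies added, 0 of 16 members were called, and mt-Nd3 had a log2 fold change of 0.53 (SE 1.29, adjusted p = 0.861).

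The tRNA genes were nearly absent from the counts with 1 exception. Of the 22, 15 had no count in any library, and 6 had counts of at most 3 in a library and did not pass the filter. A count of 0 allows up to 3 counts, or up to 3.70e-05% (COL2) to 2.04e-04% (SI1) of the mitochondrial counts, for counting error only. The exception, mt-Tp, the tRNA for proline (chrM:15356-15422, minus strand), borders the main noncoding region and had 504, 1038, 1826 and 707 counts in SI1 to SI4 and 3065, 1999, 822 and 916 in COL1 to COL4. Its share of the mitochondrial counts was 0.0343%, 0.0174%, 0.0324% and 0.0350% in SI and 0.0482%, 0.0246%, 0.0411% and 0.0577% in COL, lower in SI in each of the 4 mice. The ranges overlap through COL2, and the difference was not past the threshold (log2 share -0.52, two-sided exact permutation test, p = 0.229). Next in total came mt-Tq with 6, mt-Tc with 5 and mt-Tv with 2 counts over the 8 libraries, and the 21 tRNA genes other than mt-Tp summed to 0 to 4 counts per library.

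mt-Tp gene (chrM:15356-15422, minus strand, GRCm38): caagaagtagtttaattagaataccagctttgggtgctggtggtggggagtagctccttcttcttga
This sequence is shown because it is the only tRNA gene that passed the filter. Whether its counts come from the tRNA or from longer transcripts of either strand that cross it cannot be told apart from the gene counts.

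The nuclear genes that act on mitochondrial RNA were read in the TMM fit, where 28.4% of all genes tested were called. Of 16 genes for transcription, replication and packaging of mitochondrial DNA, 2 were higher in SI and 0 in COL, with a median log2 fold change of -0.35 against -0.09 for all genes. They were Mterf2, of the mitochondrial termination factor family, at 14.6 to 22.9 CPM in SI and 2.29 to 6.22 CPM in COL (log2 fold change 2.21, SE 0.39, adjusted p = 0.00145), and Polg2, the accessory subunit of the DNA polymerase (1.26, SE 0.37, adjusted p = 0.0261). The packaging factor Tfam was at 24.6 to 43.2 CPM in SI and 13.4 to 36.5 CPM in COL (0.10, SE 0.33, adjusted p = 0.861), and the RNA polymerase Polrmt gave 0.05 (SE 0.30, adjusted p = 0.922). Among 28 genes for RNA processing, modification and decay, 2 were higher in COL and 0 in SI, with a median of -0.20. Elac2, which cuts precursors at the 3′ ends of tRNAs, had 4.08 to 6.34 CPM in SI and 9.95 to 16.5 CPM in COL (-1.22, SE 0.30, adjusted p = 0.0104). Rexo2, an exonuclease that degrades short RNAs, had 3.62 to 7.05 CPM in SI and 9.76 to 21.9 CPM in COL (-1.43, SE 0.37, adjusted p = 0.0136). Lrpprc, which stabilises mitochondrial mRNAs, gave 0.03 (SE 0.28, adjusted p = 0.951), and its partner Slirp 0.13 (SE 0.29, adjusted p = 0.779).

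Of 9 regulators of nuclear genes for mitochondria, 3 were higher in SI and 0 in COL, with a median of 0.17. The coactivator Ppargc1a had 110 to 146 CPM in SI and 23.8 to 56.2 CPM in COL (1.63, SE 0.32, adjusted p = 0.00293), and its range in SI lay above that in COL. The transcription factor Gabpa gave 1.22 (SE 0.29, adjusted p = 0.00844) and the nuclear receptor Esrra 1.03 (SE 0.32, adjusted p = 0.0325). Called shares of all 3 lists, 2 of 16, 2 of 28 and 3 of 9, are to be read against the 28.4% of all genes. Mitochondrially encoded transcripts themselves were not called in that fit, and no test related them to these nuclear genes.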

How the data were processed

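Per the labels, total RNA of SI and COL crypts was sequenced. The submitters' processing notes name Trimmomatic 0.36 and STAR 2.5.2b. The authors deposited whole-number counts per Ensembl gene without normalization, aligned to mm10 per the paper's methods. The annotation release, the use of strand and the kit's selection step are not given in the sources used here. Symbols, positions and transcripts came from GENCODE vM21 (GRCm38), in which 45143 of 45706 genes were found (563 were not).

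From these counts, edgeR 4.0.16 (R 4.3.3) was fitted on the 14491 genes kept by filterByExpr (at least about 10 counts in 4 libraries, 15 in all), once with TMM factors (0.73 to 0.80 in SI, 1.01 to 1.45 in COL) and once with the mitochondrial sum as library size. P-values were adjusted over all genes tested, at 0.05. The study's methods name limma without settings and without a donor term, so limma-voom 3.58.1 and a replicate block of donor mouse were alternatives, beside DESeq2 1.42.0. Exact tests used all 70 assignments, with a smallest p of 0.0286, or sign flips within 4 mice, with a smallest p of 0.125. CPM in the text uses the TMM-scaled counts of the genes kept. SI and COL libraries are paired because the labels give them the same donor mice. The deviations of a mouse's libraries from their tissue means correlated at -0.31, 0.44, -0.11 and 0.42 across genes. Shared stretches were searched in annotated transcripts, since no genome sequence was used. Intervals (95%, exact) and the limit of 3 counts cover counting error only, and p-values of the exact tests the spread between these mice. The p-values of the fits over the whole table also draw on the spread of all genes tested. Named are all mRNA and rRNA genes, the 4 tRNA genes with most counts, and the called genes of 3 lists, plus Tfam, Polrmt, Lrpprc, Slirp, Malat1, Krt8, Apoa1, Epcam, Slc26a3, Aqp8 and Cd74, which were chosen with their values known. The members and lists were chosen with earlier results of these data known.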

Additional observations from a re-analysis of the deposited data

Results flagged for a closer look

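In 42 sets of 4 libraries, made of the shares and ratios of each tissue, 3 libraries lay far from the other 3 by Dixon's test at the 95% level, where chance marks about 1 set in 20. The share of mt-Atp8 in SI4 was 6.93e-04% of the mitochondrial counts against 3.01e-04% to 3.40e-04% in SI1 to SI3. It rests on 14 counts, with an exact 95% interval of 3.79e-04% to 0.00116%, which overlaps those of the other SI libraries. The share of mt-Nd3 in COL3 was 0.00255% against 0.00183% to 0.00191% in the other COL libraries, and it rests on 51 counts (exact 95% interval 0.00190% to 0.00336%). The share of mt-Tp in SI2 was 0.0174% against 0.0324% to 0.0350% in the other SI libraries, from 1038 counts (exact 95% interval 0.0163% to 0.0184%), so that counting error does not span this gap. COL2, from the same mouse 2, had the lowest mt-Tp share of the COL libraries at 0.0246%. The cause of these values was not tested.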

How the results depend on the processing

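With TMM scaling, 0 of 16 members were called under every alternative that kept all libraries and when single libraries were left out (0 to 0). Scaled to the mitochondrial sum, the count was also 0 without each library in turn (0 to 0) and under every alternative except DESeq2, which called 1, mt-Co1. With donor mouse as replicate block, which pairs the libraries, 0 members were called in both scalings, so the block changed no call of these fits. The within-mouse sign-flip tests of the 5 ratios gave p from 0.25 to 0.75 (exact). The smallest p of that test is 0.125, so no ratio could have passed the threshold in it. The block and limma-voom made 14 of 16 TMM-scaled changes positive. Adding the copies on chromosome 1, and limma-voom with the block, were chosen after seeing the data. Leaving out single libraries moved the log2 ratio of mt-Rnr2 to mt-Rnr1 between -0.0547 and 0.168, that of mt-Nd6 to mt-Cytb between -0.369 and 0.0838 and that of mt-Nd1 to mt-Rnr2 between -0.343 and 0.0361, so their signs are not settled, while mt-Nd4l to mt-Nd4 (0.06 to 0.50) and mt-Atp8 to mt-Atp6 (0.18 to 0.60) stayed positive. None of these passed the threshold. Without a filter, 22 members entered and 0 were called. With 10 counts in every library, 14 entered, and the calls among all genes on the mitochondrial scale fell from 1411 to 204. With DESeq2 these were 2532, and with COL2 left out 2799. Counts were lowest for mt-Atp8 (5 to 38 per library) and mt-Nd4l (6 to 66), so that counting error weighs most on these.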
